A study of Mus musculus with 12 samples.

Results

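The 44 genes described here run DNA replication and cell division. They were picked by gene symbol from the 54532 genes of the table, with earlier results of these data known. By role, 8 license replication origins, 8 act at the replication fork, 4 supply nucleotides, 4 control entry into S phase and 20 act in mitosis. The RNA came from whole hippocampi of C57BL/6J mouse pups aged 15 days. Each pup was injected under the skin on day 3 and into the abdomen on day 14, and tissue was collected 24 h after the later injection. SS pups (saline, then saline), SL pups (saline, then lipopolysaccharide), LS pups (lipopolysaccharide, then saline) and LL pups (lipopolysaccharide on both days) numbered 3 animals each. Lipopolysaccharide (LPS), the endotoxin of Gram-negative bacteria, was given at 5 mg/kg, and every pup had been injected on both days. SL and LL therefore measure the brain 24 h after LPS, and LS measures it 12 days after LPS. The study asks how early systemic inflammation changes the response to a later inflammatory challenge.

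Before a cell copies its DNA, the proteins Cdc6 and Cdt1 load the Mcm2 to Mcm7 helicase onto origins, a step called licensing. E2F transcription factors switch on licensing and replication genes around the G1/S transition, while a later wave of genes for spindle, chromosome and cyclin B proteins is switched on in G2 and mitosis through promoter elements named CHR and CCAAT. In the hippocampus at this age, dividing cells include the neural progenitors of the dentate gyrus, oligodendrocyte precursors and microglia. Levels are in FPKM (fragments scaled to gene length and library depth), which allows comparison between genes. Mean levels of the 44 genes over the 12 libraries ran from 0.222 FPKM for Cdc6 to 17.1 FPKM for Pcna, with a median of 1.21, and 17 of the 44 were below 1 FPKM. In bulk tissue, fewer cells of a type and less RNA per cell cannot be told apart.

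Promoters of the licensing and mitosis genes carried different sequence words. RefSeq promoters on GRCm38.p6 (250 bases before to 50 bases after the start) were found for 36 of the 44 genes, in 41 promoters. The E2F words searched on both strands were TTCCCGC and its variant TTCGCGC, with TTGGCGC and its variant TTGCCGC. They were in 87.5% of the 8 promoters of licensing genes, 18.8% of the 16 promoters of mitosis genes and 9.57% of all 32851 promoters of the same length. The 8 licensing promoters belong to 7 genes, since Mcm7 was listed more than once and Mcm4 had no promoter. CHR words (TTTGAA or TTCGAA on either strand) were in 25.0% of the licensing promoters, 81.2% of the mitosis promoters and 19.2% of all. CCAAT on either strand was in 75.0%, 93.8% and 37.4%. Words can overlap, as TTGGCGC and GCGCGAA do in Mcm6. A match is a word, not a measured binding site, and no binding was measured here.

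The 170 bases before the start are shown for the 5 licensing genes that rose in the day-14 average and had a promoter in the table, and for the 4 mitosis genes with the largest day-3 averages among those that did. Capitals mark E2F, CHR and CCAAT words, and each sequence reads 5′ to 3′ on the gene's strand. The stretches are chr6:88898781-88898950 for Mcm2 (minus strand), chr8:122567845-122568014 for Cdt1 (plus), chr8:75109339-75109508 for Mcm5 (plus), chr1:128359706-128359875 for Mcm6 (minus), chr1:20820313-20820482 for Mcm3 (minus), chr2:164769759-164769928 for Ube2c (plus), chr11:99024190-99024359 for Top2a (minus), chr4:118437344-118437513 for Cdc20 (minus) and chr19:37376212-37376381 for Kif11 (plus).
Mcm2: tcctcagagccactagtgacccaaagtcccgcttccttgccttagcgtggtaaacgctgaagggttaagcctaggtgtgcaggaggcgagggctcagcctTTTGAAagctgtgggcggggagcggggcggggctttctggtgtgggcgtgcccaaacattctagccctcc
Cdt1: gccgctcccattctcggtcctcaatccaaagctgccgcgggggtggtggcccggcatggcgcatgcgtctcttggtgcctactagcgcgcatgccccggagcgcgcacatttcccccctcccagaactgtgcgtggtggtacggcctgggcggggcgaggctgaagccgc
Mcm5: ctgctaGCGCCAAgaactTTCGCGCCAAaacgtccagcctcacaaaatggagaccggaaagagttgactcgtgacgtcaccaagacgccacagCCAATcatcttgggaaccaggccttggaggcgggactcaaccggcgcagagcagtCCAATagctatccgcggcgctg
Mcm6: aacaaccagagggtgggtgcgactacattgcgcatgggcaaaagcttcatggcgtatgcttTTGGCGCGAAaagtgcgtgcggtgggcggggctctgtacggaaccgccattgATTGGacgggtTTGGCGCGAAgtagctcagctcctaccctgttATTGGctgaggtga
Mcm3: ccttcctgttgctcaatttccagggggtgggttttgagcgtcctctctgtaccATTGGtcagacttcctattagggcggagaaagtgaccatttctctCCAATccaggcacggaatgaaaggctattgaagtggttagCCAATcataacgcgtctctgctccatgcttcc
Ube2c: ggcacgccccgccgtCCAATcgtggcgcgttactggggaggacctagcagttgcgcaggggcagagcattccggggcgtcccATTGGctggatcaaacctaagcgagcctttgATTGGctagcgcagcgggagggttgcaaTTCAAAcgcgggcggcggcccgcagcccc
Top2a: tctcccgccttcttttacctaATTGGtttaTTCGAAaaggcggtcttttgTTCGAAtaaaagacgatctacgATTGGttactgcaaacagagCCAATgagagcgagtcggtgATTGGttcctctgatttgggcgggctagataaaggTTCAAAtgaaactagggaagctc
Cdc20: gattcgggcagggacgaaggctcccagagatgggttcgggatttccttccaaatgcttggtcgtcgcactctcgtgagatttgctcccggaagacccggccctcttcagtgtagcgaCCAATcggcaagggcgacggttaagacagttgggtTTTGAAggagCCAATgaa
Kif11: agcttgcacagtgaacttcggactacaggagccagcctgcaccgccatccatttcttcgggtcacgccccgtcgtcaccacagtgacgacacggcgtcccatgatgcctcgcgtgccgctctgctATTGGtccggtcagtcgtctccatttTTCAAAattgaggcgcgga
Mcm5 and Mcm6 held E2F words in this stretch. Those of Mcm3 and Cdt1 lay after the start, so the capitals of Mcm3 are CCAAT words alone and Cdt1 has none. Mcm2 held a CHR word and no E2F word, also over the whole promoter, and so goes against the division by role. Ube2c, Cdc20 and Kif11 each held a CHR word within 29 bases of the start, and Top2a held 3 CHR words. None of the 4 mitosis stretches held an E2F word.

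Library depth was 16979666 to 24105022 fragments in the listed genes, lowest in SS (16979666 to 18425733) and highest in LL (21926635 to 24105022). The 44 genes had at least 7 fragments in every library, and 41 passed the filter of 0.5 FPKM in 3 libraries and were tested, leaving out Cdc6, Bub1 and Cenpf. Libraries differed in choroid plexus markers, and how much of that tissue was dissected and an effect of the injections on it cannot be told apart. The 15 markers summed to 2350 to 2801 FPKM in SS, 683 to 953 in SL, 2395 to 3455 in LL, and 1233, 73.9 and 39.3 in LS replicates 1 to 3. Results that rest on LS are therefore also given without LS replicates 2 and 3. Hippocampal progenitor markers were all detected in every group.

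On average, licensing genes were higher in the groups that had received LPS on day 14 (SL and LL), and mitosis genes in the groups that had received LPS on day 3 (LS and LL). By gene, 6 of 8 licensing genes rose in the day-14 average and 9 of 20 mitosis genes in the day-3 average, Mcm7 did not pass, and Bub1b, a mitosis gene, rose in the day-14 average. The mean log2(FPKM + 0.5) of the 8 licensing genes was 0.98 ± 0.06 (SD, n = 3) for SS and 1.40 ± 0.03 for SL, and it was 1.07 ± 0.05 for LS and 1.48 ± 0.05 for LL. The same mean over the 20 mitosis genes was 0.37 ± 0.04 for SS and 0.28 ± 0.04 for SL, and it was 0.63 ± 0.07 for LS and 0.73 ± 0.10 for LL. Licensing levels did not overlap between the 6 libraries with and the 6 without LPS on day 14. Mitosis levels did not overlap between the 6 libraries with and the 6 without LPS on day 3, and LS replicate 1, whose choroid plexus markers were highest of its group, stood at 0.69 beside 0.55 and 0.65 in LS replicates 2 and 3. The licensing mean minus the mitosis mean was 0.60 ± 0.05 for SS and 1.12 ± 0.06 for SL, and it was 0.44 ± 0.05 for LS and 0.75 ± 0.10 for LL. These means describe chosen genes and carry no test. As summed levels, the licensing genes reached 14.8, 20.7, 15.6 and 21.9 FPKM in SS, SL, LS and LL, and the mitosis genes 17.8, 17.1, 23.4 and 26.3 FPKM. LL had the highest group mean for 35 of the 44 genes, and SL had the lowest for 14 of the 20 mitosis genes. These orders were not counted over all genes, and the 44 genes share the same 12 libraries.

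**Figure D1:**
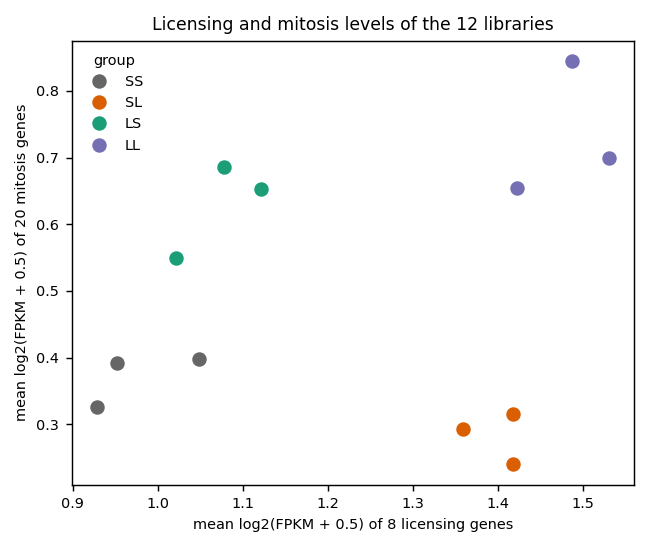
Mean log2(FPKM + 0.5) of the 8 licensing genes (horizontal) against that of the 20 mitosis genes (vertical) in each of the 12 libraries, coloured by group. The 4 groups occupy separate regions, with SL high on licensing and low on mitosis (1.40 and 0.28), LS the opposite (1.07 and 0.63) and LL high on both (1.48 and 0.73).

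**Figure D2:**
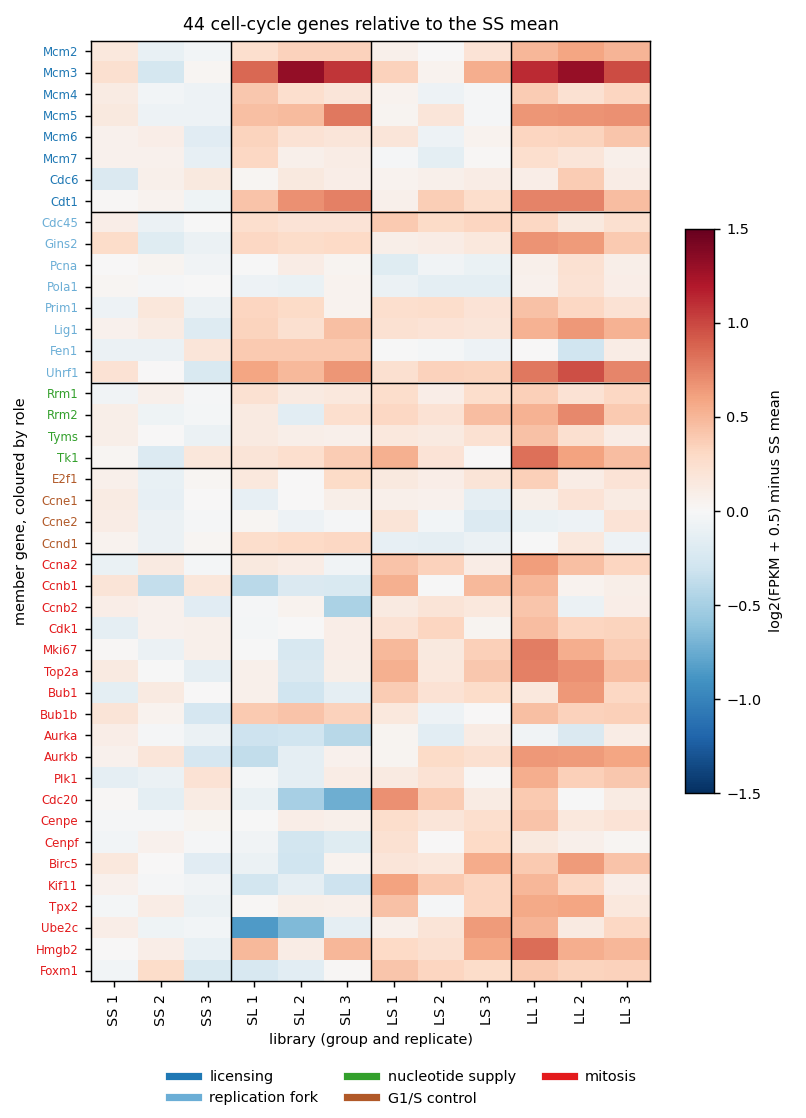
Level of each of the 44 genes (rows, names coloured by role) in each library (columns), as log2(FPKM + 0.5) minus the SS mean. Mcm3 is raised in all SL and LL libraries, while the mitosis rows are mostly raised in LS and LL.

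Each gene was tested with limma on log2(FPKM + 0.5), where fold changes understate those of low genes, and a gene is said to have risen or fallen at a Benjamini-Hochberg adjusted p below 0.05 over 17687 genes. In SL against SS, which shows the response to LPS on day 14 alone, 7 of the 44 rose and 0 fell, where 10.8% of all genes tested changed, 7.06% rising and 3.77% falling. In LS against SS, which shows what was left of LPS from day 3, 0 changed, against 0.311% of all genes (0.147% higher, 0.164% lower). Unadjusted p was below 0.05 for 12 of the 44, against 12.6% of all genes, limma voom on whole fragments also made 0 calls, and all 20 mitosis genes had estimates above 0 (median 0.29), against 51.3% of all genes with a median of 0.00. In LL against LS, the response to LPS on day 14 in pups exposed on day 3, 5 rose and 0 fell, where 2.66% of all genes changed, 2.4% rising and 0.26% falling. In LL against SL, 8 rose and 1 fell, where 8.79% of all genes changed, 3.32% rising and 5.46% falling. In LL against SS, 9 rose and 0 fell, where 2.41% changed, 2.13% rising and 0.283% falling. In the interaction, which tests whether the response to LPS on day 14 depended on the injection on day 3, 0 of the 44 changed in limma, where 5.33% of all genes did (2.14% above 0, 3.19% below 0), with 4 at an unadjusted p below 0.05, where 17.1% of all genes were, and 0 called by voom. The estimate for Mcm3 in the interaction was -0.26 (95% interval -0.79 to 0.26).

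Scaling changed the balance of calls over all genes. In SL against SS 65.2% of the calls were higher, but 48.4% with median centring and 53.4% with quantile normalization. In the same order the shares were 37.8%, 51.3% and 49.4% in LL against SL, 36.9%, 49.7% and 47.4% in the day-3 average, 71.8%, 53.1% and 60.9% in the day-14 average, and 61.7%, 41.9% and 47.8% in SL against LS.

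Averages over pairs of groups gave 6 animals against 6. For day-3 LPS, (LS and LL) against (SS and SL), 10 of the 44 rose and 1 fell, where 5.74% of all genes changed (2.12% rising, 3.62% falling), and the risers were 9 of the 20 mitosis genes and Rrm2. For day-14 LPS, (SL and LL) against (SS and LS), a comparison added after the data were seen, 12 rose and 0 fell, where 8.88% of all genes changed (6.37% rising, 2.5% falling), and 6 of them were among the 8 licensing genes, with Bub1b the 1 mitosis gene. No licensing gene rose in the day-3 average. All 8 licensing estimates were larger for day 14 than for day 3, and 19 of 20 mitosis estimates were larger for day 3. Over all genes tested, 49.5% had the larger estimate for day 14. The counts include Cdc6, Bub1 and Cenpf, which were not tested, and the genes share the same libraries, so they are not separate pieces of evidence. SL against LS, also added after the data were seen, compares LPS on day 14 alone with LPS on day 3 alone. It equals the day-14 average minus the day-3 average, so for each gene it tests the difference between the injections. Of 41 genes tested, 4 were higher in SL (Mcm3, Mcm5, Mcm4 and Ccnd1) and 3 were lower (Kif11, Cdc20 and Ube2c). Over all genes 12% differed (7.41% higher, 4.6% lower), so these counts are near the shares of all genes. Leaving out LS replicates 2 and 3 left 3 genes called in the day-3 average, 5 in the day-14 average, 3 in SL against LS and 0 in LL against LS, LS against SS and the interaction, in fits with 10 libraries. With the mean log2 level of the choroid plexus markers as a covariate, 6 licensing genes were called in the day-14 average and 5 mitosis genes in the day-3 average, but 1 gene in SL against SS and 0 in LL against LS.

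**Figure D3:**
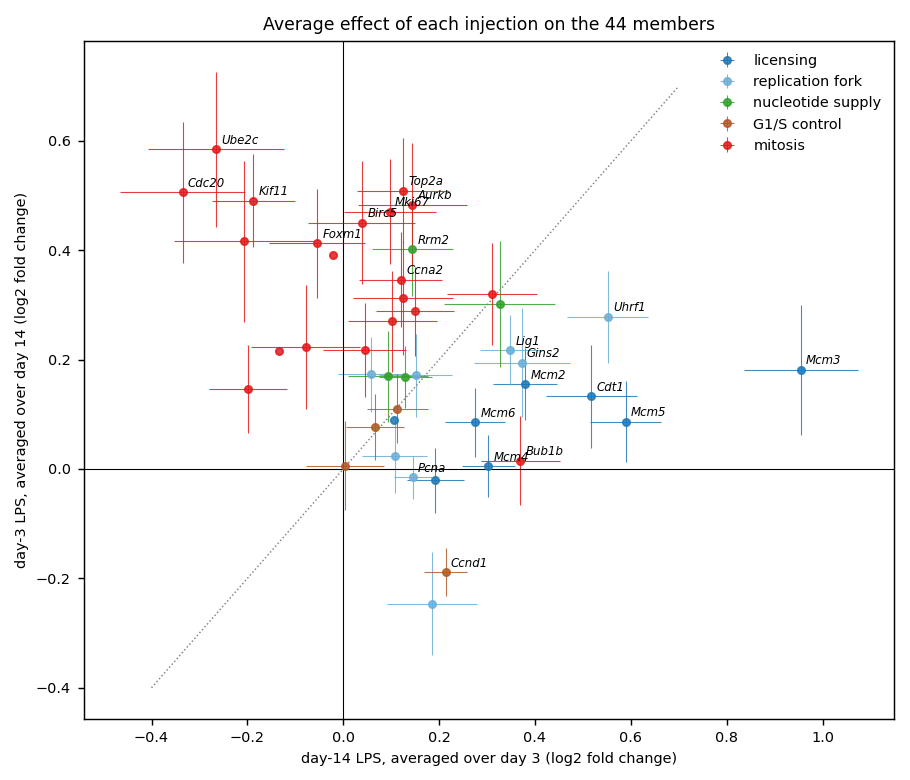
Log2 fold change of each of the 44 genes for day-14 LPS averaged over day 3 (horizontal) and for day-3 LPS averaged over day 14 (vertical), with bars of 1 standard error and colours by role (3 untested genes have no bars). Licensing genes lie to the right, out to Mcm3 at 0.95, and mitosis genes lie toward the top, up to Ube2c at 0.58; the dotted line marks equal effects, and both axes share the 12 libraries.

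Among the licensing genes, Mcm3 had the largest change. Mcm3, a helicase subunit (chromosome 1, 20802968 to 20820312, mm10), was at 1.5, 0.911 and 1.24 FPKM in SS and 2.6, 3.73 and 3.09 in SL, and at 1.66, 1.26 and 1.98 in LS and 3.21, 3.7 and 2.85 in LL. All SL and LL libraries lay above all SS and LS libraries. Mcm3 rose by 1.09 (SE 0.17, adjusted p = 0.00116) on the log2 scale in SL against SS and by 0.82 (SE 0.17, adjusted p = 0.0254) in LL against LS. Its rise in SL against SS was called in all 13 other settings and without any of the 12 libraries (0.95 to 1.20). Its rise in LL against LS was lost without LS replicate 1 or 2 or any LL replicate. In LL against SL the estimate was 0.05 (95% interval -0.32 to 0.42).

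Mcm5, another helicase subunit (chromosome 8, 75109569 to 75128439), was at 1.75, 1.42 and 1.42 FPKM in SS and 2.27, 2.32 and 3.0 in SL, and at 1.59, 1.79 and 1.51 in LS and 2.71, 2.74 and 2.77 in LL. Again both groups with LPS on day 14 lay above both groups with saline on that day. The rise was 0.57 (SE 0.10, adjusted p = 0.00367) in SL against SS and 0.61 (SE 0.10, adjusted p = 0.0106) in LL against LS, the latter lost without LS replicate 3 or LL replicate 3. Mcm2, also in the helicase (chromosome 6, 88883474 to 88898780), was at 1.35, 1.04 and 1.11 FPKM in SS and 1.48, 1.62 and 1.62 in SL, and at 1.25, 1.16 and 1.41 in LS and 1.85, 2.0 and 1.87 in LL. Here LL libraries were the highest, and SL libraries lay between them and SS. Mcm2 rose in LL against LS by 0.44 (SE 0.09, adjusted p = 0.0311), a call lost without any 1 of the LS or LL libraries, and in LL against SS by 0.53 (SE 0.09, adjusted p = 0.01), and its SL against SS estimate of 0.32 did not pass (adjusted p = 0.056).

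Cdt1, the loader that brings the helicase to origins (chromosome 8, 122568015 to 122573554), was at 0.486, 0.517 and 0.431 FPKM in SS and 0.811, 1.07 and 1.15 in SL, and at 0.532, 0.759 and 0.674 in LS and 1.14, 1.13 and 0.849 in LL. SL and LL libraries were above every SS and LS library. The rise in SL against SS was 0.62 (SE 0.13, adjusted p = 0.0108), and without SL replicate 3 it was not called (adjusted p = 0.0511). Mcm4 was at 3.44, 3.02 and 2.94 FPKM in SS and 4.31, 3.83 and 3.61 in SL, and at 3.26, 2.93 and 3.07 in LS and 4.21, 3.75 and 4.02 in LL. Its rise of 0.28 (adjusted p = 0.044) in SL against SS was kept in 3 of the 12 fits that each left out a library, while its day-14 average of 0.30 (adjusted p = 0.00469) was kept in all 12. Mcm6 was at 3.46, 3.56 and 2.85 FPKM in SS and 4.25, 3.89 and 3.78 in SL, and at 3.77, 3.09 and 3.42 in LS and 4.23, 4.27 and 4.55 in LL, and its day-14 average was 0.27 (adjusted p = 0.0167). For both subunits the shift was small beside that of Mcm3. Mcm7 had a day-14 average of 0.19 (adjusted p = 0.0759), and Cops6 on the opposite strand of its locus was at 37.1 FPKM, so its level is uncertain. Cdc6, which recruits Cdt1, was not tested and ranged from 0.0786 to 0.378 FPKM.

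**Figure D4:**
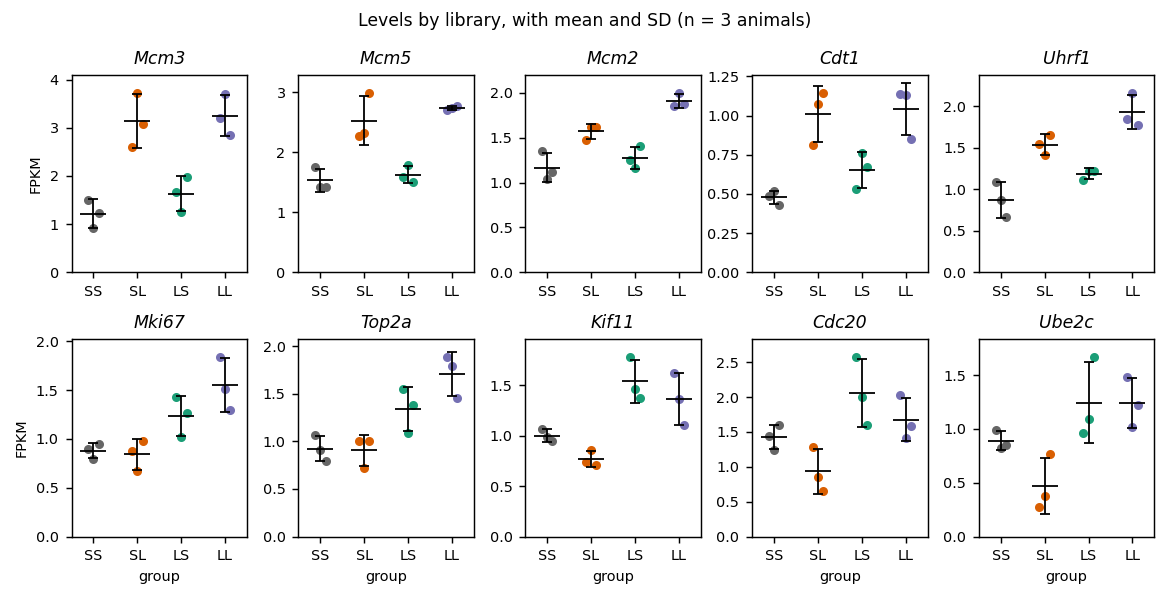
FPKM by group of 5 genes that rose in the day-14 average (top) and 5 mitosis genes that rose in the day-3 average (bottom). Each animal is a point, with the mean and SD as bars (n = 3). No mitosis gene was called in LS against SS, and LS overlapped SS for Ube2c. In the top row SL and LL stand above SS and LS, as for Mcm3 at 3.14 ± 0.567 FPKM in SL against 1.22 ± 0.296 in SS, and in the bottom row LS and LL stand above SL.

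At the fork, Uhrf1 and Lig1 rose in the day-14 average (0.55 and 0.35), as licensing genes did. Their day-3 averages of 0.28 (SE 0.08) and 0.22 (SE 0.06) did not pass. The median estimate over the 8 fork genes was 0.17 in both averages. Uhrf1, which binds newly copied, hemimethylated DNA (chromosome 17, 56303321 to 56323486), was at 1.09, 0.871 and 0.661 FPKM in SS and 1.55, 1.41 and 1.65 in SL, and at 1.11, 1.22 and 1.22 in LS and 1.85, 2.16 and 1.77 in LL. LL was highest, with SL above LS, and the groups with and without LPS on day 14 did not overlap. It rose by 0.58 (SE 0.12, adjusted p = 0.00838) in SL against SS and by 0.83 (SE 0.12, adjusted p = 0.00259) in LL against SS, both kept without any of the 12 libraries. Lig1, which joins Okazaki fragments (chromosome 7, 13277283 to 13311433), was at 2.16, 2.27 and 1.73 FPKM in SS and 2.7, 2.49 and 2.96 in SL, and at 2.47, 2.43 and 2.39 in LS and 3.16, 3.49 and 3.14 in LL. LL libraries were the highest, and SL libraries lay just above all LS libraries. It rose by 0.34 (adjusted p = 0.0348) in SL against SS, a call kept in 6 of 12 fits that left out a library, and by 0.57 (SE 0.09, adjusted p = 0.00524) in LL against SS. The Lig1 locus overlaps Zswim9 on the opposite strand.

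Pcna, the sliding clamp of the polymerase (chromosome 2, 132249162 to 132253314), was at 16.9, 17.4 and 16.2 FPKM in SS and 16.7, 18.2 and 17.3 in SL, and at 14.7, 16.2 and 15.7 in LS and 17.7, 19.7 and 18.0 in LL. The 12 values span a narrow range, with the lowest mean in LS, whose highest library just passed the lowest SS library, and all LL libraries above all LS libraries. It rose in LL against LS by 0.24 (SE 0.06, adjusted p = 0.0464), a call kept in 1 of the 12 fits that left out a library. Gins2, a subunit of the active helicase, had a day-14 average of 0.37 (adjusted p = 0.0418), kept in 2 of those 12 fits. Cdc45, Pola1, Prim1 and Fen1 did not pass in any comparison. Fen1, the flap nuclease, named after its values were seen, was at 0.533, 0.526 and 0.738 FPKM in SS and 0.935, 0.942 and 0.938 in SL, and at 0.589, 0.574 and 0.538 in LS and 0.598, 0.390 and 0.681 in LL, and the 3 SL libraries stood above the other 9. Of all genes tested, 26.3% did not overlap between SL and SS, 26.6% between SL and LS and 26.1% between LL and SL. Cdc45, Gins2 and Fen1 overlap genes on the opposite strand that are at higher levels (Ufd1, Gse1 and Tmem258), and pseudogene copies of Pcna are in the table, so these levels are uncertain.

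Of the nucleotide supply genes, Rrm2 alone was called. Rrm2, the cell-cycle-regulated subunit of ribonucleotide reductase (chromosome 12, 24708241 to 24714146), was at 1.76, 1.53 and 1.58 FPKM in SS and 1.82, 1.4 and 2.02 in SL, and at 2.13, 1.97 and 2.43 in LS and 2.55, 2.99 and 2.29 in LL. LS and LL were above SS in every library, and SL overlapped SS. The day-3 average was 0.40 (SE 0.09, adjusted p = 0.0186), and LL against SL was 0.47 (adjusted p = 0.033), a call lost without SL or LL replicate 1 or 2. Tyms, thymidylate synthase, was at 0.608, 0.542 and 0.480 FPKM in SS and 0.643, 0.605 and 0.601 in SL, and at 0.662, 0.645 and 0.722 in LS and 0.912, 0.731 and 0.625 in LL. It did not pass in any comparison, and neither did Rrm1 or Tk1. All 4 genes had their lowest group mean in SS and their highest in LL, an order not counted over all genes.

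Of the genes of S-phase entry, Ccnd1 (cyclin D1, which activates Cdk4 and Cdk6, chromosome 7, 144929931 to 144939925) was at 8.47, 7.6 and 8.32 FPKM in SS and 9.86, 10.1 and 10.2 in SL, and at 7.43, 7.38 and 7.63 in LS and 8.08, 9.14 and 7.66 in LL. SL was above all other groups, and LL overlapped SS. Ccnd1 rose by 0.29 (SE 0.06, adjusted p = 0.0112) in SL against SS and fell in LL against SL (-0.27 (SE 0.06, adjusted p = 0.0232)), the fall being kept in 8 of the 12 fits that left out a library. It was the 1 gene called in both averages, higher with LPS on day 14 (0.21) and lower with LPS on day 3 (-0.19). The day-3 call was kept in 3 of the 12 fits that left out a library and in 6 of 12 other settings, and was lost without LS replicates 2 and 3. Ccne1, cyclin E1, was at 3.77, 3.11 and 3.46 FPKM in SS and 3.12, 3.47 and 3.69 in SL, and at 3.64, 3.62 and 3.1 in LS and 3.7, 4.04 and 3.8 in LL. LL libraries lay just above all SL and LS libraries and overlapped SS, and Ccne1, Ccne2 and E2f1 did not pass in any comparison. The E2f1 estimate in SL against SS was 0.15 (95% interval -0.05 to 0.35). Ccnd1 and Ccne2 overlap genes on the opposite strand (Oraov1 at 2.35 FPKM and Ints8 at 3.35 FPKM), so their levels are uncertain.

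Of the 20 mitosis genes, 7 rose in LL against SL, 9 in the day-3 average and 0 in SL against SS. In SL against SS 1 mitosis gene was called lower under some other settings: Aurka with median centring (-0.40, adjusted p = 0.0414) or quantile normalization (-0.41, adjusted p = 0.0418), Cdc20 with library weights (-0.57, adjusted p = 0.0445) and Ube2c without SL replicate 3 (-0.75, adjusted p = 0.0300). Mki67, the Ki-67 antigen of cycling cells (chromosome 7, 135689784 to 135716361), was at 0.893, 0.795 and 0.947 FPKM in SS and 0.877, 0.670 and 0.981 in SL, and at 1.43, 1.02 and 1.27 in LS and 1.84, 1.51 and 1.3 in LL. All LS and LL libraries were above all SS and SL libraries. Mki67 rose by 0.47 (SE 0.10, adjusted p = 0.0154) in the day-3 average, and by 0.61 (SE 0.14, adjusted p = 0.0167) in LL against SL. Top2a, the topoisomerase that untangles chromosomes (chromosome 11, 98992943 to 99024189), was at 1.06, 0.913 and 0.793 FPKM in SS and 0.999, 0.719 and 1.0 in SL, and at 1.55, 1.09 and 1.38 in LS and 1.89, 1.79 and 1.45 in LL. It had the same order of groups, with no overlap by day-3 injection, and a day-3 average of 0.51 (SE 0.10, adjusted p = 0.0101). Kif11, the spindle motor that pushes poles apart (chromosome 19, 37376403 to 37421859), was at 1.07, 0.986 and 0.944 FPKM in SS and 0.744, 0.861 and 0.713 in SL, and at 1.79, 1.46 and 1.37 in LS and 1.62, 1.36 and 1.11 in LL. All SL libraries were below all SS libraries, and LS overlapped LL. Its day-3 average was 0.49 (SE 0.09, adjusted p = 0.00637). The day-3 calls of Mki67, Top2a and Kif11 were kept in 11 of 11 other settings and without any of the 12 libraries.

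Ube2c, which feeds ubiquitin to the anaphase-promoting complex (chromosome 2, 164769898 to 164778822), was at 0.994, 0.824 and 0.854 FPKM in SS and 0.272, 0.379 and 0.767 in SL, and at 0.964, 1.09 and 1.67 in LS and 1.49, 1.02 and 1.22 in LL. The 3 SL libraries were the lowest of the 12. It rose by 0.86 (SE 0.20, adjusted p = 0.0209) in LL against SL, and was lower in SL than in LS (-0.85 (SE 0.20, adjusted p = 0.0168)). Cdc20, an activator of that complex (chromosome 4, 118432901 to 118437352), was at 1.45, 1.24 and 1.59 FPKM in SS and 1.29, 0.861 and 0.653 in SL, and at 2.58, 1.99 and 1.6 in LS and 2.02, 1.42 and 1.59 in LL. SL had the lowest mean and overlapped SS, and LS and LL overlapped. Cdc20 was lower in SL than in LS by -0.84 (SE 0.18, adjusted p = 0.0108), and its day-3 average was 0.51 (adjusted p = 0.0457), kept in 2 of 12 fits that left out a library. The Cdc20 locus overlaps Elovl1 on the opposite strand.

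Aurkb, the kinase of the chromosomal passenger complex (chromosome 11, 69045647 to 69051664), was at 0.419, 0.492 and 0.239 FPKM in SS and 0.176, 0.299 and 0.414 in SL, and at 0.401, 0.573 and 0.534 in LS and 0.874, 0.870 and 0.819 in LL. All LL libraries were above the other 9. It rose by 0.78 (SE 0.16, adjusted p = 0.011) in LL against SL, a call kept without any of the 12 libraries. Birc5 (survivin), of the same complex, was at 0.587, 0.477 and 0.366 FPKM in SS and 0.416, 0.290 and 0.505 in SL, and at 0.607, 0.584 and 0.926 in LS and 0.780, 1.02 and 0.808 in LL. All LL libraries were above all SL and SS libraries, while LS overlapped SS by a narrow margin. It rose in LL against SL by 0.60 (adjusted p = 0.0378). Plk1, the polo-like kinase, was at 1.17, 1.24 and 1.65 FPKM in SS and 1.31, 1.18 and 1.49 in SL, and at 1.52, 1.65 and 1.36 in LS and 2.2, 1.86 and 1.94 in LL, and rose in LL against SL by 0.46 (adjusted p = 0.0318). LL libraries were the highest for it. The LL against SL calls were kept in 10 of the 12 fits that left out a library for Top2a, 9 for Mki67 and Kif11, 8 for Ube2c, 7 for Plk1 and 6 for Birc5.

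Foxm1, a transcription factor of mitosis genes, was at 0.510, 0.755 and 0.386 FPKM in SS and 0.377, 0.433 and 0.549 in SL, and at 0.889, 0.803 and 0.755 in LS and 0.860, 0.813 and 0.824 in LL. The highest SS library equalled the lowest LS library to 3 digits, all LL libraries were above SS and SL, and SL had the lowest mean. Ccna2, cyclin A2, was at 0.848, 1.09 and 0.915 FPKM in SS and 1.1, 1.07 and 0.896 in SL, and at 1.45, 1.34 and 1.06 in LS and 1.74, 1.48 and 1.31 in LL. LS overlapped SS and SL, and LL was above both. The Ccna2 locus overlaps Exosc9 on the opposite strand, at 4.01 FPKM, so its level is uncertain. Day-3 averages were 0.41 (adjusted p = 0.036) for Foxm1 and 0.35 (adjusted p = 0.0416) for Ccna2, and these calls, with those of Birc5, Aurkb and Ube2c, were each kept in 2 or 3 of the 12 fits that left out a library. Hmgb2, a chromatin protein of dividing cells, was at 2.62, 2.84 and 2.38 FPKM in SS and 3.85, 2.87 and 3.88 in SL, and at 3.32, 3.18 and 4.16 in LS and 5.06, 4.04 and 3.9 in LL. It was above SS in all 3 other groups, and rose in LL against SS by 0.63 (SE 0.13, adjusted p = 0.0296), a call lost without any 1 of the SS or LL libraries.

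Cdk1, the mitotic kinase, was at 0.321, 0.446 and 0.450 FPKM in SS and 0.382, 0.410 and 0.472 in SL, and at 0.548, 0.634 and 0.429 in LS and 0.750, 0.629 and 0.635 in LL. All LL libraries were above all SS and SL libraries, and LS overlapped them. Its day-3 average of 0.27 did not pass (adjusted p = 0.133). Ccnb1, cyclin B1, was at 0.557, 0.220 and 0.539 FPKM in SS and 0.201, 0.295 and 0.289 in SL, and at 0.840, 0.424 and 0.798 in LS and 0.801, 0.458 and 0.482 in LL. Its spread within groups was wide, and its day-3 average of 0.42 did not pass (adjusted p = 0.145). Processed pseudogenes of Ccnb1 and Ccnb2 are in the table, the latter at 1.78 FPKM, so these cyclins are uncertain. Bub1b, a spindle checkpoint kinase chosen here after its values were seen, was at 1.43, 1.25 and 0.912 FPKM in SS and 1.7, 1.76 and 1.63 in SL, and at 1.38, 1.09 and 1.19 in LS and 1.8, 1.64 and 1.65 in LL. All SL and LL libraries were above all SS and LS libraries, with a day-14 average of 0.37 (SE 0.08, adjusted p = 0.0143) and a day-3 average of 0.02. Aurka, Ccnb2, Cenpe and Tpx2 did not pass in any comparison on the values as deposited, and Bub1 and Cenpf were not tested.

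Genes of the same processes outside the 44 were read from lists. Of 42 other replication genes, 34 were tested. In SL against SS 3 rose (Timeless 0.61, Pola2 0.37 and Pold3 0.24) and Rpa1 fell (-0.21), with a list median of 0.02 against 0.00 over all genes. These counts are near the shares of all genes in that contrast (7.06% rising, 3.77% falling), so they say nothing particular about the list. In the day-14 average 2 of the 34 rose and 0 fell, where 6.37% of all genes rose and 2.5% fell. The list median there was 0.02, against -0.01 over all genes, so the rise of the chosen licensing genes was not seen across this list. Of 51 other mitosis genes, 34 were tested. In LL against SL 5 rose, among them Melk (0.70), Pbk (0.70) and Racgap1 (0.51), with a list median of 0.21, where 3.32% of all genes rose. Anln, the cytokinesis scaffold anillin, went the other way and was at 1.98, 1.78 and 1.73 FPKM in SS and 2.94, 3.51 and 2.71 in SL, and at 1.69, 1.81 and 1.5 in LS and 1.15, 1.69 and 1.84 in LL. All SL libraries were above the other 9. Anln rose in SL against SS by 0.61 (adjusted p = 0.0122) and fell in LL against SL (-0.80 (adjusted p = 0.00295)).

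Of 21 cell-cycle inhibitors and growth arrest genes, 19 were tested, and in SL against SS 5 rose (Cdkn2b, Gadd45b, Gadd45g, Cdkn1a and Btg2) and Cdkn1c fell, with a list median of -0.04, where 7.06% of all genes rose and 3.77% fell. Cdkn1a (p21, an inhibitor of cyclin-dependent kinases) was at 6.26, 7.4 and 6.52 FPKM in SS and 9.46, 10.0 and 9.17 in SL, and at 7.53, 7.68 and 7.12 in LS and 8.66, 7.4 and 7.86 in LL. SL was above the other groups in every library, with a rise of 0.48 (SE 0.07, adjusted p = 0.000948). Gadd45b, a stress-induced growth arrest gene, was at 6.32, 7.95 and 6.95 FPKM in SS and 15.5, 12.9 and 11.4 in SL, and at 6.84, 7.69 and 6.08 in LS and 5.65, 6.85 and 6.5 in LL. The SL libraries were the only ones above 10 FPKM, and Gadd45b rose by 0.86 (SE 0.12, adjusted p = 0.000635) and fell in LL against SL (-1.01 (SE 0.12, adjusted p = 0.000333)). In LL against SL 6 of the 19 fell, where 5.46% of all genes did, and Cdkn2c (p18) rose by 0.63 (SE 0.10, adjusted p = 0.00152). Among 20 tested cyclin, kinase and E2F genes, 1 rose in SL against SS, a share below that of all genes (7.06%). It was Myc, at 0.76 (SE 0.14, adjusted p = 0.00496). In LL against SL 1 rose, Ccnd2 (cyclin D2), by 0.41 (SE 0.09, adjusted p = 0.0127), and 1 fell, Myc (-0.64 (SE 0.14, adjusted p = 0.0183)), where 3.32% of all genes rose and 5.46% fell.

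**Figure D5:**
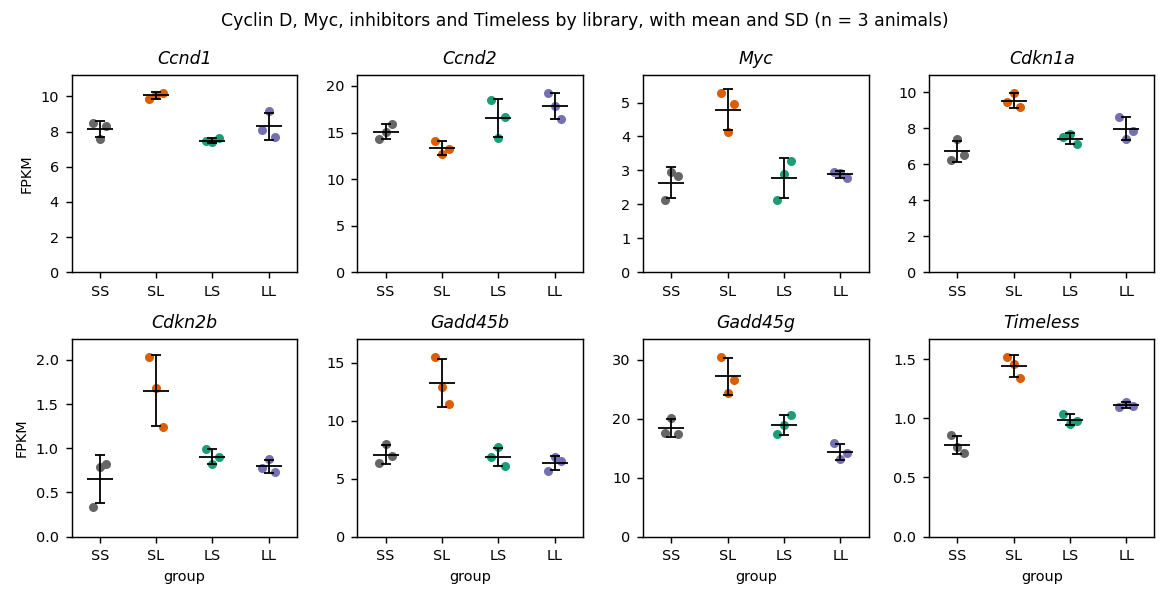
FPKM of Ccnd1, Ccnd2, Myc, 4 inhibitors or growth arrest genes and Timeless by group, with each animal as a point and the mean and SD as bars (n = 3). SL stands highest for all but Ccnd2, which is lowest there, as for Gadd45b at 13.3 ± 2.07 FPKM in SL against 6.33 ± 0.618 in LL.

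Markers of other cells moved with the same contrasts. The 9 neutrophil markers all rose in SL against SS, from 2.60 to 3.75 summed FPKM in SS to 123 to 243 in SL, while in LL they summed to 7.68 to 9.22. In LL against SS, 3 of the 9 rose, where 2.13% of all genes did. In SS, Mmp8 and Cxcr2 were at 0 in all 3 libraries, and in LS Retnlg was. The 10 microglia markers all rose in the day-3 average. Their sums were 114 to 122 FPKM in SS, 134 to 179 in SL, 144 to 169 in LS and 227 to 230 in LL. The sum hides a split, with 4 markers higher and 4 lower in SL against SS. In SL against LS, 2 were higher and 6 lower. Over all genes tested, 7.06% rose and 3.77% fell in SL against SS, and 7.41% and 4.6% in SL against LS. Of 11 neural progenitor markers, 4 rose and 2 fell in the day-3 average, with sums of 143 to 149 FPKM for SS and 118 to 148 for SL, against 173 to 187 for LS and 159 to 210 for LL. Of 10 immature neuron markers 3 rose, where 2.12% of all genes rose and 3.62% fell, and of 10 oligodendrocyte precursor markers 0 passed in limma in that average, with 3 at an unadjusted p below 0.05, where 18.4% of all genes were. Red cell markers followed the day-14 injection, as the licensing genes did but in the other direction. Of 7 listed, 5 were tested and all 5 fell in the day-14 average, where 2.5% of all genes fell. Their sums of 198 to 233 FPKM for SS and 177 to 266 for LS did not overlap with 57.7 to 93.4 for SL and 78.1 to 140 for LL. The part of these cells in the results was not tested.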

How the data were processed

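Hippocampal polyA RNA was sequenced from 12 pups, 3 animals per group per the labels, so p-values reflect the spread between animals. The authors deposited FPKM values per gene. The submitters' processing notes name HISAT2 2.0.5, featureCounts 1.5.0-p3 and the build mm10. How strand and fragments shared by genes were handled is not stated in those sources, so overlapping genes and genes with pseudogene copies are uncertain. Sex was not stated in the labels. All 44 identifiers and positions matched GENCODE vM21.

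Multiplying FPKM by gene length gave whole fragments for 100% of values above 0, within 0.01, and 1 fragment in 1 kb was worth 0.0402 to 0.0587 FPKM. Chi-square per gene was 3.78 to 12.5 between replicates, so none was a repeat of another.

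limma 3.58.1 in R 4.3.3 was fitted to log2(FPKM + 0.5) with each group's mean as a term (8 residual degrees of freedom), using its moderated, trended variance, on the 17687 genes that reached 0.5 FPKM in 3 libraries or more. Each of the 9 comparisons was adjusted separately by Benjamini-Hochberg (two-sided, threshold 0.05), and every adjusted p comes from limma. Permuting 3 against 3 exactly cannot give a p below 0.1. Libraries of 2 groups did not overlap for many of all genes tested. The shares were 26.3% in SL against SS, 18% in LS against SS and 19.9% in LL against LS. They were 26.1% in LL against SL, 20.4% in LL against SS and 26.6% in SL against LS. The procedure was tested on simulated data for SL against SS, with the spread between animals set at a dispersion of 0.01. It recovered 49.2% of 1.5-fold changes, 77.3% of 2-fold changes and 93.9% of 4-fold changes. Small changes can therefore be missed, and a gene that was not called may still have changed. The 44 genes and the other lists were chosen with earlier results of these data known. Values per library are given for genes called in a comparison of the design and for 15 genes picked by role whatever their values; exceptions are named. Other settings were pseudocounts of 0.1 and 1, no filter or a filter of 2 FPKM, median centring, quantile normalization, only the groups compared, the replicate number as a block, limma voom on the whole fragments, library weights, a choroid plexus covariate, protein-coding genes only, no LS replicates 2 and 3, and each library left out.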

Additional observations from a re-analysis of the deposited data

Results flagged for a closer look

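None of the 44 genes passed the limma interaction test, which asks whether the response to LPS on day 14 differed between pups given saline and LPS on day 3. In the related lists 5 genes did, and they were singled out for that difference between groups. These lists had 34, 34, 20 and 19 genes tested. Over all genes tested 5.33% passed, so the count of 5 was near that share. Gadd45b had an interaction of -0.97 (SE 0.17, adjusted p = 0.00708) on the log2 scale, and Gadd45g, of the same growth arrest family, had -0.94 (SE 0.14, adjusted p = 0.00231). Both calls were kept when any 1 of the 12 libraries was left out. Without LS replicates 2 and 3 together, Gadd45b was at -0.97 (adjusted p = 0.0526) and Gadd45g at -0.82 (adjusted p = 0.0424). With the choroid plexus covariate neither call was kept, at adjusted p = 0.345 for Gadd45b and 0.474 for Gadd45g. Gadd45g was at 17.6, 20.1 and 17.4 FPKM in SS and 30.5, 24.4 and 26.6 in SL, and at 17.4, 18.8 and 20.6 in LS and 15.9, 13.1 and 14.1 in LL. Its levels rose in SL and lay below all SS libraries in LL.

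Cdkn2b, which encodes the inhibitor p15, had an interaction of -1.03 (SE 0.26, adjusted p = 0.0456), Btg2, an antiproliferative gene, had -0.39 (SE 0.10, adjusted p = 0.0448), and Timeless, a replication fork protector, had -0.49 (SE 0.12, adjusted p = 0.0447). These calls were kept in 3, 3 and 0 of the 12 fits that left out a library, and all 3 were lost without LS replicates 2 and 3 together and with the choroid plexus covariate. Timeless was at 0.855, 0.758 and 0.708 FPKM in SS and 1.52, 1.46 and 1.34 in SL, and at 1.04, 0.950 and 0.977 in LS and 1.09, 1.14 and 1.1 in LL. It was highest in all SL libraries. Among the 5 genes, the response to LPS on day 14 was higher after saline on day 3, with SL above SS for each.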

How the results depend on the processing

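Counts of the 44 genes called moved with the settings. SL against SS (7 called) had 4 with only the groups compared and 1 with the choroid plexus covariate. LL against LS (5) had 1 with no filter, 3 with a filter of 2 FPKM, 3 with median centring, 3 with quantile normalization, 1 with only the groups compared, 3 with the replicate block, 8 with library weights, and 0 with the choroid plexus covariate or without LS replicates 2 and 3. LL against SL (9) had 2 with a filter of 2 FPKM, 2 with only the groups compared and 2 with the choroid plexus covariate. LL against SS (9) had 5 with no filter, 5 with a filter of 2 FPKM, 4 with only the groups compared, 15 with voom and 16 with protein-coding genes only. The day-3 average (11) had 5 with no filter, 2 with a filter of 2 FPKM, 6 with the choroid plexus covariate and 3 without LS replicates 2 and 3. The day-14 average (12) had 7 with a filter of 2 FPKM and 5 without LS replicates 2 and 3. SL against LS (7) had 4 with a filter of 2 FPKM, 11 with quantile normalization (3 higher, 8 lower), 12 with protein-coding genes only (6 higher, 6 lower) and 3 without LS replicates 2 and 3 (1 higher, 2 lower). A filter of 2 FPKM tests fewer of the 44 genes, and fits on fewer groups or libraries have fewer degrees of freedom. For the other moves the cause was not tested. The choroid plexus covariate differs between groups, so group differences parallel to it are taken out with it. Leaving out each library in turn gave 5 to 8 calls in SL against SS, 0 to 0 in LS against SS, 0 to 5 in LL against LS (0 without LL replicate 3, 1 without LL replicate 1 or 2 or any LS replicate, 3 without SS replicate 2 or SL replicate 2 or 3), 1 to 10 in LL against SL (1 without LL replicate 1, 2 without SL replicate 2, 4 without LL replicate 2, 5 without LL replicate 3), 4 to 9 in LL against SS (4 without LL replicate 2, 5 without SS replicate 2 or LL replicate 1), 0 to 0 in the interaction, 4 to 8 in the day-3 average (4 without SL replicate 2, LS replicate 2 or LL replicate 1, 5 without replicate 3 of SS, LS or LL, 6 without SS replicate 1, SL replicate 1, LS replicate 1 or LL replicate 2), 10 to 11 in the day-14 average and 5 to 9 in SL against LS. With a lone LS library, its spread is assumed to be that of the other groups. The licensing mean minus the mitosis mean was 0.75, 1.45, 0.52 and 0.88 in SS, SL, LS and LL with a pseudocount of 0.1 and 0.49, 0.89, 0.37 and 0.63 with 1, always highest in SL and lowest in LS. Replicate numbers did not pair the samples: same-number correlations of deviations were -0.07 to 0.10, and 6 of 12 libraries correlated best with their own number. No named gene that was called changed direction under a setting that was run.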
